A study of Mus musculus with 20 samples.

Results

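Aminoacyl-tRNA synthetase genes were compared across 20 RNA-sequencing libraries of 3T3-L1 adipocytes with altered Foxk1 or Foxk2, a pair of related forkhead transcription factors. Members were chosen by symbol: protein-coding rows named Eprs, Farsa or Farsb, or a one-letter amino acid code followed by ars, with or without a closing 1 or 2. The rule found 37 genes among the 48440 rows of the table, 20 for cytosolic enzymes and 17 for mitochondrial ones. All 37 passed the filter on low values, which 15981 genes passed.

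3T3-L1 is a preadipocyte line of Swiss mouse origin that turns into fat cells in culture. Every group received the same differentiation medium, in which insulin (5 µg/ml) was joined by troglitazone (10 µM), isobutyl methylxanthine (0.5 mM) and dexamethasone (1 µM), then insulin alone from day 4 and growth medium from day 6. Cells labelled as constitutive expression of FOXK1 or FOXK2 had an empty vector as their control, and cells with an shRNA against Foxk1 or Foxk2 had a scrambled shRNA. Each of the 4 Foxk1 groups held 3 libraries and each of the 4 Foxk2 groups held 2, so the 4 comparisons share no control library. The promoter of the constructs, the shRNA sequences and the number of clones are not given in the sources used here. Nothing in the labels describes replicates as separate cultures, so each p-value reflects only how these libraries spread, which may be technical.

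Aminoacyl-tRNA synthetases attach each amino acid to its own tRNA, the step that sets the genetic code, and they fall into 2 unrelated folds, class I and class II. Cytosol and mitochondria mostly use enzymes from separate genes, but Gars and Kars each encode both forms, and Eprs joins the glutamyl and prolyl enzymes in one chain. Several cytosolic enzymes sit in a multisynthetase complex held by the scaffold proteins of Aimp1, Aimp2 and Eef1e1. When amino acids run short, the kinase GCN2 senses uncharged tRNA, and the transcription factor ATF4 then raises amino acid transporters, biosynthetic enzymes and many cytosolic synthetases.

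Assigned reads numbered 16739763 to 20772823 per library in the Foxk1 set and 31378224 to 36157008 in the Foxk2 set. Each member had 118 reads or more in every library, and Sars2 and Pars2 had the fewest. Foxk1 read 6.16, 6.06 and 6.08 RPKM in the libraries labelled Foxk1 overexpression and 7.11, 7.48 and 8.04 RPKM in their controls, so its RNA fell rather than rose there (log2 fold change -0.28 ± 0.055, adjusted p = 0.000515), and directions are those of the label. In Foxk1 knockdown it went from 8.80, 8.18 and 7.98 RPKM to 3.35, 2.95 and 3.46 RPKM (-1.23 ± 0.055, adjusted p = 4.19e-10). Both groups of each pair stood apart. Foxk2 rose in Foxk2 overexpression, from 13.4 and 13.3 to 19.9 and 19.98 RPKM (0.56 ± 0.049, adjusted p = 1.95e-07), and fell in its knockdown, from 13.1 and 12.7 to 3.25 and 3.29 RPKM (-1.83 ± 0.049, adjusted p = 6.75e-12). Each factor's RNA also moved when the other was altered: Foxk1 by -0.66 and 0.30 with Foxk2 overexpression and knockdown, and Foxk2 by 0.29 and -0.19 with labelled Foxk1 overexpression and Foxk1 knockdown, all called. Adipocyte genes were abundant in every library, with Adipoq at 646.6 to 3152 RPKM and Fabp4 at 891 to 1781 RPKM, while leptin (Lep) did not exceed 1.16 RPKM. RPKM counts reads per kilobase of exon, scaled to the library's total, so it compares levels between genes per length.

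Glycyl-, lysyl- and asparaginyl-tRNA synthetase genes had the highest levels per length in all 4 control groups. Gars led in each, at 69.3 ± 3.55, 72.6 ± 0.205, 93.2 ± 2.41 and 106 ± 1.41 RPKM (SD; n = 3, 3, 2 and 2) in the controls of labelled Foxk1 overexpression, Foxk1 knockdown, Foxk2 overexpression and Foxk2 knockdown. Kars followed at 60.6 ± 2.46, 58.8 ± 1.77, 72.8 ± 0.345 and 73.4 ± 1.54 RPKM, and Nars at 55.96 ± 1.72, 54.8 ± 1.33, 71.5 ± 2.82 and 72.1 ± 0.650 RPKM. The means of Kars and Nars differed by less than 1 SD of the more variable gene in both Foxk2 control groups, and by more than that in both Foxk1 control groups. Mars2 was lowest in every control group, at 1.75 ± 0.0415, 1.35 ± 0.136, 1.69 ± 0.0380 and 1.74 ± 0.0171 RPKM, with Nars2, Pars2 and Sars2 just above it in an order that varied. Together, the 20 cytosolic genes summed to between 561 and 754 RPKM in control libraries, against 135 to 189 RPKM for the 17 mitochondrial genes.

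Promoter sequence is shown for the members that carry a C/EBP-ATF response element, the composite site through which ATF4 acts, because cytosolic synthetases are textbook ATF4 targets. RefSeq (GRCm38.p6, the assembly also called mm10) supplied 28 windows for 27 of the 37 members, each running from 250 bases before to 50 bases after a gene start. The element, searched on both strands as TGATGNAA, was found in 5 of these 28 windows, those of Aars, Gars, Iars, Tars and Yars. Of all 32851 windows of that length, 3.97% held it. Each line below gives 50 bases on the gene's own strand, 5′ to 3′, with the match in capitals; TGATG reads as CATCA where the match lies on the other strand.
Yars (chr4:129189876-129189925, plus strand): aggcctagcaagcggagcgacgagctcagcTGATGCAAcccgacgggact
Gars (chr6:55037941-55037990, plus strand): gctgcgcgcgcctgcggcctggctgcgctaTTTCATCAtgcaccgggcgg
Aars upstream (chr8:111033700-111033749, plus strand): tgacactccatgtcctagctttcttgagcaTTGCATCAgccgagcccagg
Aars after the start (chr8:111033821-111033870, plus strand): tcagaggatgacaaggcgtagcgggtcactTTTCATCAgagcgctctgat
Iars (chr13:49682107-49682156, plus strand): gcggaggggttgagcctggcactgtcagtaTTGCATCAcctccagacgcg
Tars (chr15:11399654-11399703, minus strand): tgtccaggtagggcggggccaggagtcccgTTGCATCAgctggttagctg

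The longer form TGATGCAAT, which contains the shorter one, was in 2 member windows (Aars and Iars) and in 0.19% of all windows. A forkhead motif, GTAAACA, was in the windows of Iars2 and Vars2 and in 3.65% of all windows, and the E-box CACGTG was in those of Aars, Ears2, Farsb, Iars and Tars and in 7.15% of all. A match describes letters in these windows and not binding by any factor. All 5 members with the response element were called higher in both overexpressions, as were 22 of all 37 members and 13.5% of all genes. Of the 5, 2 (Aars and Gars) were also called lower in both knockdowns. That full pattern held for 10 of the 37 members and 4.52% of all genes.

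Most cytosolic synthetase genes were higher in the libraries labelled Foxk1 overexpression and in Foxk2 overexpression, and most were lower in Foxk1 knockdown. In the labelled Foxk1 overexpression, 27 of 37 members were called higher, 1 was called lower (Cars2) and 9 did not pass, where 47.8% of all genes tested were called, 24.1% higher and 23.8% lower. In Foxk1 knockdown, 23 were called lower and 14 did not pass, where 35.9% of all genes were called, 20.4% higher and 15.5% lower. In Foxk2 overexpression 24 were called higher and 13 did not pass, where 45.0% of all genes were called, 23.0% higher and 22.0% lower. In Foxk2 knockdown 17 were called lower and 20 did not pass, where 33.7% of all genes were called, 18.0% higher and 15.7% lower. In bulk libraries, fewer cells of a type and less RNA per cell cannot be told apart. A call is an adjusted p under 0.05 in limma's moderated test over all genes. Of the genes called in Foxk1 knockdown, 56.9% were higher, a share of 46.8% under median-ratio scaling and 43.5% after removal of the trend with gene length and GC, and in Foxk2 knockdown the share of 53.5% became 40.4% with that trend removed.

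Changes were moderate in size. The median log2 fold change of the 37 members was 0.33, -0.18, 0.23 and -0.15 in labelled Foxk1 overexpression, Foxk1 knockdown, Foxk2 overexpression and Foxk2 knockdown, beside medians of all genes between 0 and 0.0169. No member was called higher in either knockdown or lower in Foxk2 overexpression: limma gave 0 such members at an unadjusted p under 0.05, and voom on recovered reads, the other tool run, called 0. Of the 20 cytosolic genes, 19 were called higher with labelled Foxk1 overexpression, 16 lower in Foxk1 knockdown, 15 higher in Foxk2 overexpression and 10 lower in Foxk2 knockdown. Of the 17 mitochondrial genes, 8, 7, 9 and 7 were called in those directions. With Eprs left out because it belongs to both classes, class II enzymes were called higher in 15 and 14 of 18 cases and class I enzymes in 11 and 9 of 18 in the 2 overexpressions, with the knockdown counts at 12 and 11 lower for class II and 10 and 5 lower for class I.

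Treated and control libraries did not overlap for 28 members that were higher and 1 that was lower with labelled Foxk1 overexpression, where 52.3% of all genes did not overlap, 26.4% higher and 25.8% lower. In Foxk1 knockdown 26 members were lower without overlap, where 44.2% of all genes stood apart, 25.3% higher and 18.9% lower. With 2 libraries a group, ranges part more easily: 28 members were higher and 4 lower in Foxk2 overexpression (70.3% of all genes, 36.2% higher and 34.1% lower). In Foxk2 knockdown 2 were higher and 29 lower (67.2% of all genes, 34.7% higher and 32.5% lower).

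**Figure D1:**
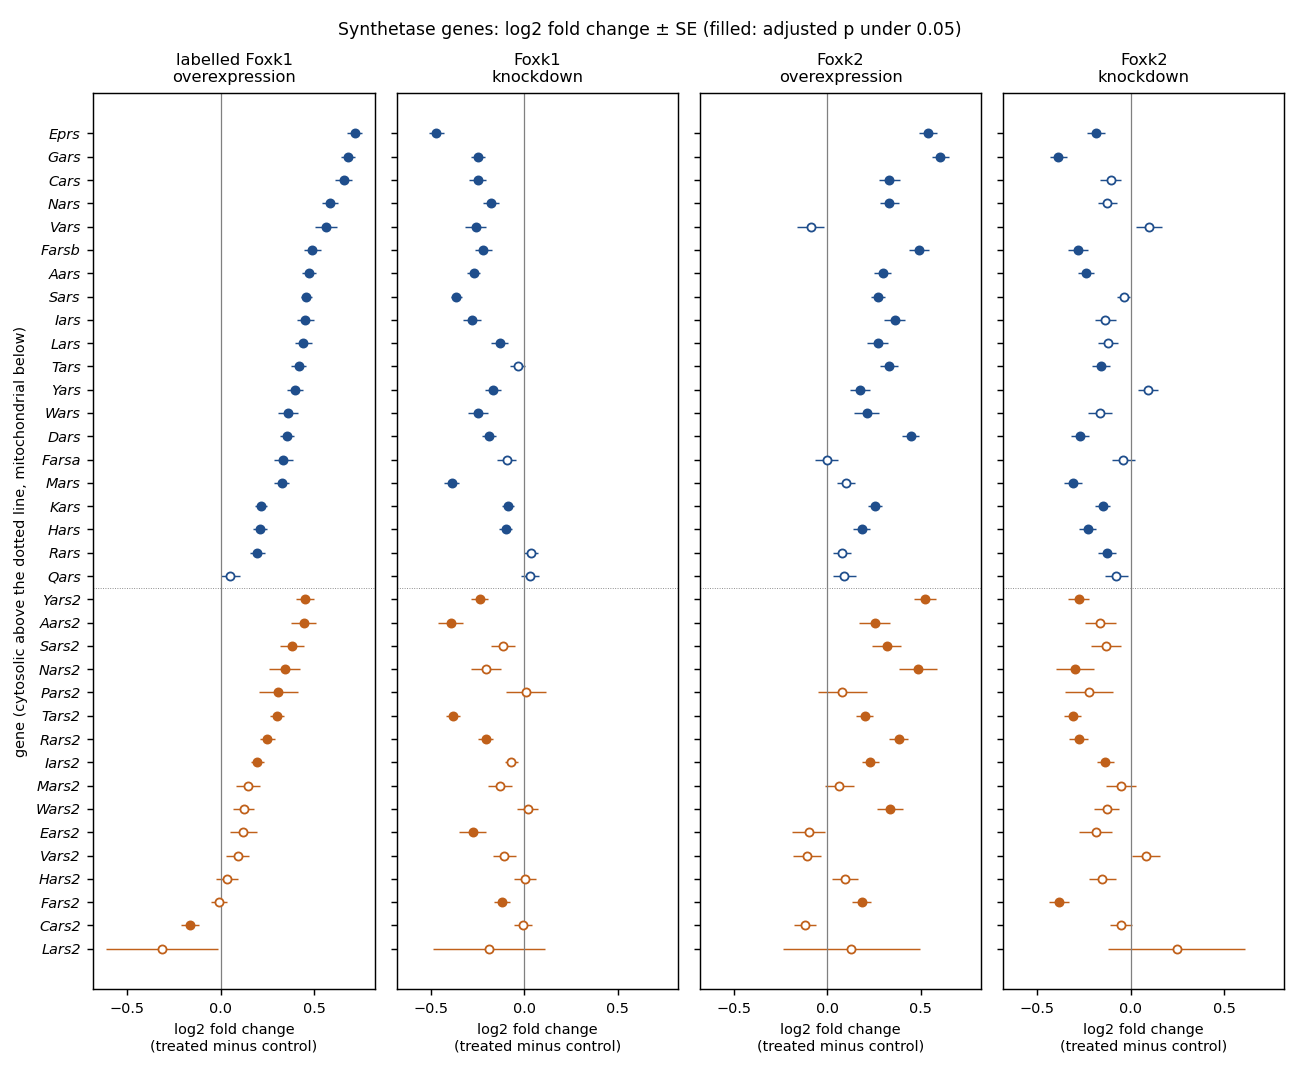
Log2 fold changes on the log2(RPKM + 0.5) scale of the synthetase genes reported by name in the 4 comparisons, with the model's SE as bars and filled points for genes called at an adjusted p under 0.05. Cytosolic genes lie mostly right of 0 in both overexpressions and left of 0 in both knockdowns, Cars2 is the 1 filled point on the opposite side, and Lars2 has the widest bars.

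Summed over the cytosolic genes, the RPKM of control and treated libraries did not overlap in any comparison. The sum went from 586 to 611 RPKM in the controls to 803 to 828 RPKM with labelled Foxk1 overexpression, 1.37 times the control mean. In Foxk1 knockdown it went from 561 to 571 down to 492 to 495 RPKM, 0.872 times the control. Foxk2 overexpression brought it from 709 to 730.0 up to 866 to 924 RPKM (1.24 times), and Foxk2 knockdown from 752 to 754 down to 659 to 665 RPKM (0.880 times). The mitochondrial sum overlapped in labelled Foxk1 overexpression (144 to 189 and 165 to 169.7 RPKM) and in Foxk2 knockdown (185 to 187 and 160.2 to 191 RPKM). Without Lars2, left out after its spread was seen, the mitochondrial sum was 1.15, 0.899, 1.16 and 0.867 times the control in the 4 comparisons, with no overlap in any.

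**Figure D2:**
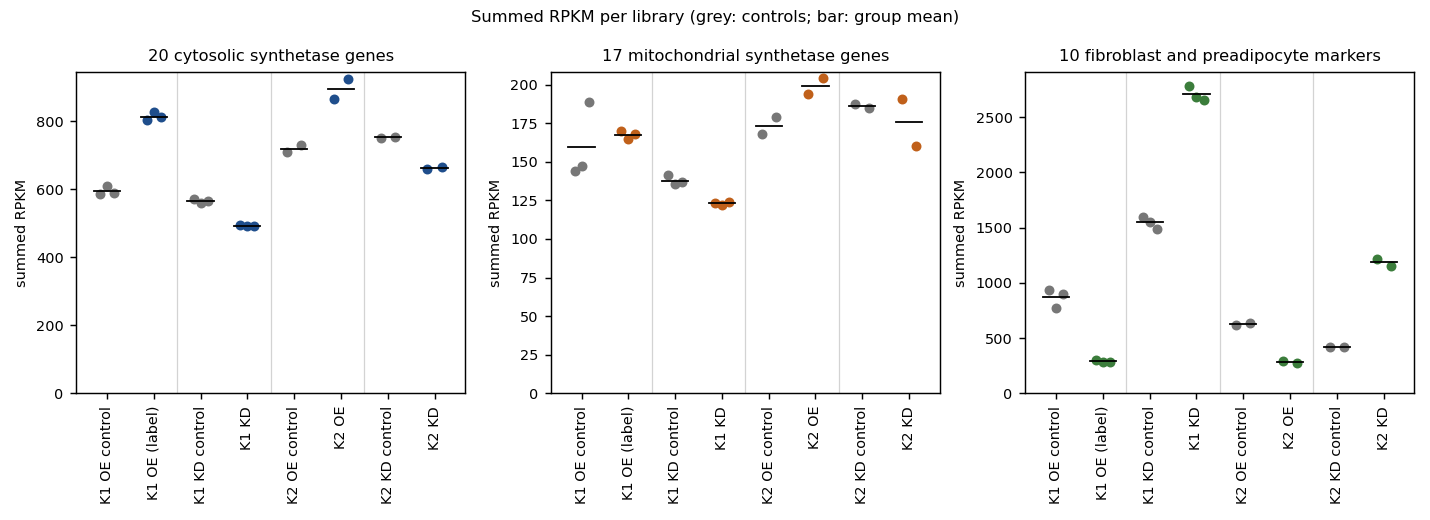
Summed RPKM of the 20 cytosolic and the 17 mitochondrial synthetase genes and of the 10 fibroblast and preadipocyte markers in every library, 1 point per library with bars at group means. The cytosolic points of treated and control libraries stand apart in all 4 comparisons, and 1 library of the labelled Foxk1 overexpression controls stands high in the mitochondrial panel.

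In 3 comparisons Eprs changed most among the enzymes of the multisynthetase complex, and in Foxk2 knockdown Mars and Dars fell more (gene positions here and later are on mm10). Eprs (ENSMUSG00000026615.14, chromosome 1, 185363044 to 185428360 on the plus strand) read 22.00, 23.5 and 21.4 RPKM in the controls of labelled Foxk1 overexpression and 37.5, 35.9 and 37.4 RPKM in the labelled libraries. Its Foxk1 knockdown libraries read 16.7, 16.1 and 15.96 RPKM against 22.8, 22.1 and 23.2 RPKM in their controls. With Foxk2, overexpression libraries read 30.8 and 34.1 RPKM against 22.3 and 22.01, and knockdown libraries 22.8 and 23.4 RPKM against 26.3 and 26.5. The groups did not overlap in any of the 4 comparisons, and both overexpression groups stood above every control library of the series. The log2 fold changes were 0.71 ± 0.040 (SE, adjusted p = 8.74e-10), -0.47 ± 0.040 (adjusted p = 2.18e-07), 0.54 ± 0.049 (adjusted p = 2.48e-07) and -0.19 ± 0.049 (adjusted p = 0.00711). The last call was lost without Foxk2 knockdown replicate 1 (-0.17, adjusted p = 0.0562).

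Dars, the aspartyl enzyme of the same complex (ENSMUSG00000026356.15, chromosome 1, 128363707 to 128417368 on the minus strand), read 19.99, 19.48 and 18.2 RPKM in controls and 25.2, 24.7 and 24.1 RPKM with labelled Foxk1 overexpression, and 15.6, 15.9 and 16.1 against 13.9, 13.7 and 13.9 RPKM in Foxk1 knockdown. In the Foxk2 set it read 15.9 and 15.4 against 20.5 and 22.6 RPKM with overexpression and 18.1 and 18.4 against 15.01 and 15.1 RPKM with knockdown. Treated and control libraries of Dars were apart in all 4 comparisons. Its log2 fold changes were 0.35 ± 0.038, -0.19 ± 0.038, 0.45 ± 0.047 and -0.27 ± 0.047 (adjusted p = 1.69e-06, 0.00109, 1.31e-06 and 0.000322).

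Mars, the methionyl enzyme that also charges initiator tRNA (ENSMUSG00000040354.14, chromosome 10, 127296221 to 127311786 on the minus strand), was lower in both knockdowns. Its levels were 26.2, 24.9 and 25.1 RPKM in controls and 19.9, 18.6 and 19.4 RPKM in Foxk1 knockdown, and 43.7 and 45.6 against 35.9 and 36.1 RPKM in Foxk2 knockdown. Labelled Foxk1 overexpression gave 40.2, 43.4 and 43.1 RPKM against 32.5, 34.2 and 34.1, and Foxk2 overexpression 45.9 and 47.2 against 41.9 and 45.1. No groups of Mars overlapped, and in Foxk2 overexpression they nearly met. The knockdown changes were -0.39 ± 0.039 (adjusted p = 1.41e-06) and -0.31 ± 0.048 (adjusted p = 0.000129), the labelled Foxk1 overexpression change was 0.32 ± 0.039 (adjusted p = 5.2e-06), and that of Foxk2 overexpression did not pass (0.10 ± 0.048, adjusted p = 0.113). Mars shares 68 exonic bases with Ddit3, a stress factor gene on the other strand at a mean of 107 RPKM that moved the same way (0.80, -1.21, 0.35 and -0.27). Without a stated strand setting, reads in those bases cannot be told apart.

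Of the 8 synthetases of the complex, 7 were called higher with labelled Foxk1 overexpression, 6 lower in Foxk1 knockdown, 5 higher in Foxk2 overexpression and 5 lower in Foxk2 knockdown. Kars, for lysine, was called in all 4 (0.21, -0.09, 0.26 and -0.15). Iars and Lars, for isoleucine and leucine, were called higher in both overexpressions (Iars 0.45 and 0.36, Lars 0.44 and 0.27) and lower in Foxk1 knockdown (-0.28 and -0.13). Rars, for arginine, passed in labelled Foxk1 overexpression (0.19) and Foxk2 knockdown (-0.13) but not in the others (0.04 and 0.08). Its Foxk2 knockdown call was lost in 6 of 12 other settings and without any one of its 4 libraries other than knockdown replicate 2. The Lars call in Foxk1 knockdown was lost in 3 of 12 settings and without 4 of 6 libraries. Those 4 were control replicates 2 and 3 and knockdown replicates 2 and 3. In a model of the Foxk2 overexpression groups alone, the Lars call was lost there (adjusted p = 0.0681). Kars lost its Foxk2 knockdown call without control replicate 2 or knockdown replicate 2, and in a model of those groups alone (adjusted p = 0.0605). Its Foxk1 knockdown call was lost in 5 of 12 settings and without 4 of 6 libraries. Qars, for glutamine, passed in none, with log2 fold changes of 0.05 ± 0.050, 0.03 ± 0.050, 0.09 ± 0.062 and -0.08 ± 0.062 and libraries between 12.5 and 17.5 RPKM throughout.

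The complex's scaffold genes did not share one pattern. Aimp1 and Aimp2 were called higher with labelled Foxk1 overexpression (0.19 and 0.35), where Eef1e1 did not pass (0.10). Eef1e1 was called lower in Foxk1 knockdown (-0.39), higher in Foxk2 overexpression (0.35) and lower in Foxk2 knockdown (-0.36). Its Foxk2 overexpression call was lost after removal of the length and GC trend, where 0 of the 3 scaffold genes were called. Aimp2 was also called lower in Foxk2 knockdown (-0.25).

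Gars, the glycyl enzyme (ENSMUSG00000029777.10, chromosome 6, 55038007 to 55079500 on the plus strand), changed most among the cytosolic enzymes outside the complex in all but Foxk1 knockdown, where Sars, Aars and Vars fell more and Cars and Wars as much. Its libraries read 68.1, 73.3 and 66.5 RPKM in controls and 113, 111 and 109.8 RPKM with labelled Foxk1 overexpression. Foxk1 knockdown libraries read 60.5, 63.2 and 59.5 RPKM against 72.7, 72.3 and 72.7 RPKM. In the Foxk2 set, overexpression gave 136 and 148 against 91.4 and 94.9 RPKM and knockdown 80.02 and 81.8 against 105 and 107 RPKM. Again no groups overlapped, and Foxk2 overexpression held the highest values of any member in the series. Log2 fold changes of Gars were 0.68 ± 0.037, -0.25 ± 0.037, 0.60 ± 0.046 and -0.39 ± 0.046 (adjusted p = 8.04e-10, 9.16e-05, 3.79e-08 and 8.94e-06).

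**Figure D3:**
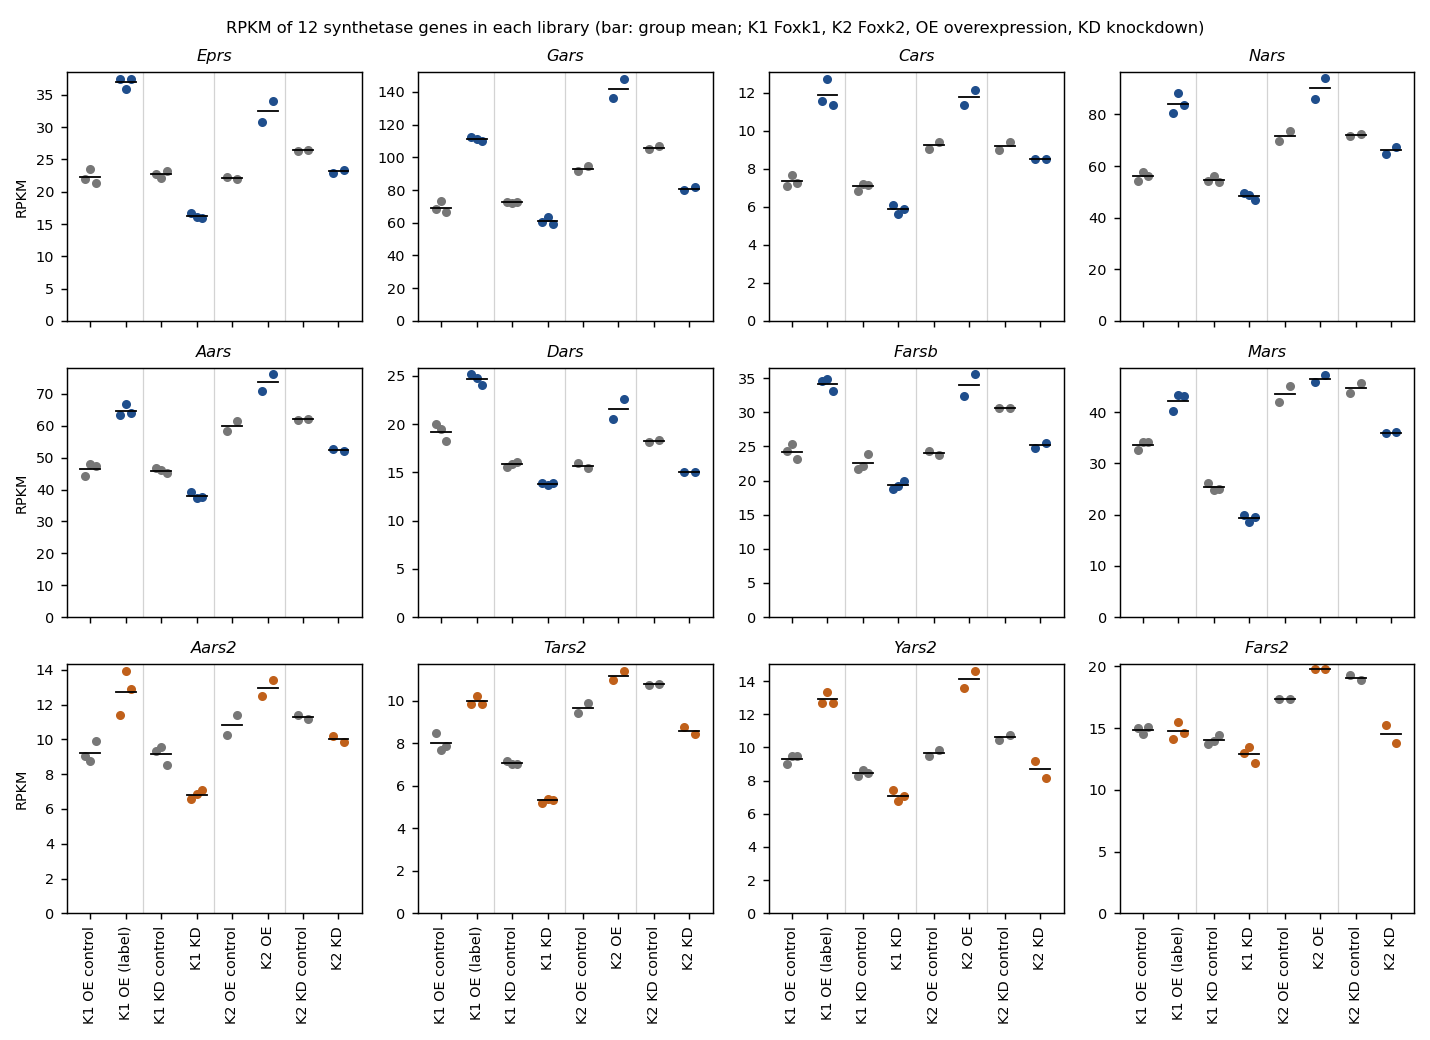
RPKM of the 12 synthetase genes described library by library, 1 point per library and 1 panel per gene, with treated and control groups side by side. Eprs and Gars stand apart from their controls in every comparison, while Fars2 overlaps its controls in the libraries labelled Foxk1 overexpression.

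Cars and Nars, for cysteine and asparagine, completed the 4 largest rises in the libraries labelled Foxk1 overexpression. Cars (ENSMUSG00000010755.17, chromosome 7, 143557230 to 143600090 on the minus strand) read 7.12, 7.68 and 7.26 RPKM in controls and 11.6, 12.7 and 11.4 RPKM in the labelled libraries, and 6.85, 7.21 and 7.15 against 6.09, 5.63 and 5.91 RPKM in Foxk1 knockdown. Its Foxk2 values were 9.06 and 9.42 against 11.4 and 12.2 RPKM with overexpression and 9.003 and 9.42 against 8.52 and 8.52 RPKM with knockdown. Cars libraries stood apart from their controls in all 4 comparisons, narrowly so in Foxk2 knockdown. Cars changed by 0.66 ± 0.046, -0.25 ± 0.046 and 0.33 ± 0.057 in the first 3 comparisons (adjusted p = 1.32e-08, 0.000568 and 0.000176), and by -0.11 ± 0.057 in Foxk2 knockdown, which did not pass (adjusted p = 0.175). Nars (ENSMUSG00000024587.9, chromosome 18, 64499647 to 64516652 on the minus strand) read 54.2, 57.6 and 56.1 RPKM in controls and 80.6, 88.3 and 83.6 RPKM with labelled Foxk1 overexpression, and 54.3, 56.3 and 53.7 against 49.4, 48.9 and 46.7 RPKM in Foxk1 knockdown. In the Foxk2 set Nars read 69.5 and 73.5 against 86.1 and 94.1 RPKM with overexpression and 71.7 and 72.6 against 64.8 and 67.4 RPKM with knockdown. Nars did not overlap its controls in any comparison. Its log2 fold changes were 0.58 ± 0.041, -0.18 ± 0.041, 0.33 ± 0.051 and -0.13 ± 0.051, of which the last did not pass (adjusted p = 1.44e-08, 0.0032, 6.53e-05 and 0.0706).

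Aars and Farsb were called in all 4 comparisons. Aars, the alanyl enzyme (ENSMUSG00000031960.14, chromosome 8, 111033144 to 111057664 on the plus strand), read 44.2, 47.9 and 47.5 against 63.5, 66.7 and 63.9 RPKM with labelled Foxk1 overexpression and 46.8, 46.02 and 45.04 against 39.1, 37.4 and 37.5 RPKM in Foxk1 knockdown, controls first. With Foxk2 it read 58.3 and 61.5 against 71.1 and 76.2 RPKM in overexpression and 61.9 and 62.02 against 52.8 and 52.1 RPKM in knockdown. No groups of Aars overlapped, and its log2 fold changes were 0.47 ± 0.037, -0.27 ± 0.037, 0.30 ± 0.045 and -0.24 ± 0.045 (adjusted p = 4.06e-08, 3e-05, 5.67e-05 and 0.000635). Farsb, the beta subunit of the phenylalanyl enzyme (ENSMUSG00000026245.16, chromosome 1, 78417975 to 78488897 on the minus strand), read 24.3, 25.3 and 23.1 against 34.5, 34.9 and 33.1 RPKM with labelled Foxk1 overexpression and 21.6, 22.2 and 23.9 against 18.7, 19.2 and 20.01 RPKM in Foxk1 knockdown. Its Foxk2 libraries read 24.3 and 23.8 against 32.4 and 35.6 RPKM with overexpression and 30.7 and 30.6 against 24.8 and 25.5 RPKM with knockdown. Its groups were apart in all 4, and Farsb changed by 0.49 ± 0.045, -0.22 ± 0.045, 0.49 ± 0.055 and -0.28 ± 0.055 (adjusted p = 2.59e-07, 0.00123, 2.45e-06 and 0.000873). Aars shares 1326 exonic bases with Exosc6 on its own strand, which is listed at 0 RPKM, and Farsb shares 248 with Sgpp2.

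Farsa, the alpha subunit that pairs with the product of Farsb, was called higher with labelled Foxk1 overexpression (0.33) and did not pass in Foxk1 knockdown (-0.09), Foxk2 overexpression (-0.00 ± 0.060) or Foxk2 knockdown (-0.04). Its Foxk2 overexpression libraries read 17.2 and 18.3 RPKM against 17.3 and 18.2 RPKM in controls, which overlap.

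The remaining cytosolic enzymes outside the complex are Hars, Sars, Tars, Vars, Wars and Yars. Hars, for histidine, was called in all 4 (0.21, -0.10, 0.18 and -0.23), but its Foxk1 knockdown call was lost in 4 of 12 other settings. That call was also lost without any one of the 6 libraries. Sars and Wars, for serine and tryptophan, were called higher in both overexpressions (Sars 0.46 and 0.27, Wars 0.36 and 0.21) and lower in Foxk1 knockdown (-0.36 and -0.25), and did not pass in Foxk2 knockdown (-0.04 and -0.16). Tars, for threonine, passed in all but Foxk1 knockdown (0.42, -0.04, 0.33 and -0.16), but its Foxk2 knockdown call was lost without any one of the 4 libraries (adjusted p = 0.0587 to 0.0825). Yars, for tyrosine, was called higher in both overexpressions (0.40 and 0.18) and lower in Foxk1 knockdown (-0.17), with 0.09 in Foxk2 knockdown, which did not pass. The Foxk2 overexpression calls of Wars and Yars were lost without control replicate 1 or overexpression replicate 2, and that of Hars without control replicate 1. Each of these calls was also lost in a model of those groups alone.

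Vars, for valine, was called in the Foxk1 set alone. It read 12.7, 13.1 and 14.02 against 19.1, 20.6 and 19.7 RPKM with labelled Foxk1 overexpression (0.56 ± 0.058, adjusted p = 9.94e-07) and 14.2, 12.5 and 12.3 against 10.9, 9.90 and 11.5 RPKM in Foxk1 knockdown (-0.26 ± 0.058, adjusted p = 0.00241). In the Foxk2 set it read 21.3 and 21.5 against 20.3 and 19.9 RPKM with overexpression (-0.09 ± 0.071, adjusted p = 0.349) and 18.4 and 17.7 against 19.9 and 18.8 RPKM with knockdown (0.10 ± 0.071, adjusted p = 0.334). Both Foxk2 values changed sign and passed after removal of the length and GC trend, at 0.19 (adjusted p = 0.00167) and -0.12 (adjusted p = 0.0370). Their direction therefore depends on the scaling. The Vars call in Foxk1 knockdown was lost in a model of those groups alone (adjusted p = 0.0677).

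Among mitochondrial enzymes, Yars2, Tars2 and Rars2 were called in all 4 comparisons, each higher in both overexpressions and lower in both knockdowns. Yars2, for tyrosine (ENSMUSG00000022792.16, chromosome 16, 16302965 to 16309640 on the plus strand), read 8.97, 9.49 and 9.47 against 12.7, 13.3 and 12.7 RPKM with labelled Foxk1 overexpression and 8.27, 8.63 and 8.48 against 7.42, 6.77 and 7.10 RPKM in Foxk1 knockdown. With Foxk2 it read 9.46 and 9.86 against 13.6 and 14.6 RPKM in overexpression and 10.48 and 10.7 against 9.21 and 8.15 RPKM in knockdown. The groups stood apart throughout, with changes of 0.45 ± 0.047, -0.24 ± 0.047, 0.52 ± 0.057 and -0.28 ± 0.057 (adjusted p = 1.05e-06, 0.000852, 2e-06 and 0.00132). The last call was lost in a model of the Foxk2 knockdown groups alone (adjusted p = 0.0828).

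Tars2, for threonine (ENSMUSG00000028107.14, chromosome 3, 95739976 to 95760206 on the minus strand), read 8.49, 7.67 and 7.86 against 9.85, 10.2 and 9.85 RPKM with labelled Foxk1 overexpression and 7.17, 7.01 and 7.02 against 5.21, 5.37 and 5.34 RPKM in Foxk1 knockdown. Its Foxk2 libraries read 9.44 and 9.88 against 10.9 and 11.4 RPKM with overexpression and 10.7 and 10.8 against 8.74 and 8.43 RPKM with knockdown. No groups overlapped, and the changes were 0.30 ± 0.037, -0.38 ± 0.037, 0.20 ± 0.045 and -0.31 ± 0.045 (adjusted p = 6.19e-06, 8.96e-07, 0.00183 and 6.91e-05). Rars2, for arginine, changed by 0.25 ± 0.040, -0.20 ± 0.040, 0.38 ± 0.050 and -0.28 ± 0.050 (adjusted p = 0.000112, 0.000937, 1.22e-05 and 0.000416).

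Aars2, the mitochondrial alanyl enzyme (ENSMUSG00000023938.7, chromosome 17, 45506841 to 45520843 on the plus strand), had the second largest fall in Foxk1 knockdown after Eprs. It read 9.33, 9.56 and 8.51 RPKM in controls and 6.56, 6.85 and 7.08 RPKM in that knockdown, and 9.03, 8.76 and 9.90 against 11.4, 13.9 and 12.9 RPKM with labelled Foxk1 overexpression. In the Foxk2 set it read 10.2 and 11.4 against 12.5 and 13.4 RPKM with overexpression and 11.4 and 11.2 against 10.2 and 9.87 RPKM with knockdown. Aars2 groups were apart in each comparison. Its changes were 0.44 ± 0.067, -0.39 ± 0.067, 0.25 ± 0.082 and -0.16 ± 0.082, the last of which did not pass (adjusted p = 5.59e-05, 0.000278, 0.0205 and 0.156). The Foxk2 overexpression call was lost without Foxk2 overexpression control replicate 1 (0.18, adjusted p = 0.185) and without Foxk2 overexpression replicate 2 (0.20, adjusted p = 0.145).

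Fars2, the single-chain mitochondrial phenylalanyl enzyme (ENSMUSG00000021420.12, chromosome 13, 36117412 to 36726280 on the plus strand), had the second largest fall in Foxk2 knockdown after Gars. It read 19.3 and 18.9 RPKM in controls and 15.2 and 13.8 RPKM in that knockdown, and 17.4 and 17.4 against 19.8 and 19.8 RPKM with Foxk2 overexpression. The Foxk1 set gave 15.005, 14.5 and 15.1 against 14.1, 15.5 and 14.6 RPKM with labelled overexpression, which overlap, and 13.7, 13.9 and 14.4 against 13.02, 13.5 and 12.2 RPKM with knockdown. Fars2 changed by 0.18 ± 0.053 with Foxk2 overexpression (adjusted p = 0.0105) and -0.38 ± 0.053 in Foxk2 knockdown (adjusted p = 4.03e-05). Its value with labelled Foxk1 overexpression was -0.01 ± 0.043 (adjusted p = 0.865), and the Foxk1 knockdown call at -0.12 ± 0.043 (adjusted p = 0.0463) was lost without any one of 5 of its 6 libraries. That Foxk1 knockdown call was also lost in 4 of 12 other settings. Fars2 shares 501 exonic bases with Nrn1 and 115 with Lyrm4, both on the other strand.

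Among the other mitochondrial genes, Iars2 and Nars2 were called higher in both overexpressions and lower in Foxk2 knockdown. The changes were 0.20, 0.23 and -0.13 for Iars2 and 0.34, 0.48 and -0.30 for Nars2. In a model of the Foxk2 overexpression groups alone, the Iars2 call was lost there (adjusted p = 0.0629). The Foxk2 knockdown call of Iars2 was lost without any one of the 4 libraries and with a replicate block (adjusted p = 0.0607), and that of Nars2 without any one other than knockdown replicate 1 and in 2 of 12 other settings. Sars2 was called higher in both overexpressions (0.38 and 0.32), Pars2 with labelled Foxk1 overexpression (0.31, lost without control replicate 1 or 3 or without labelled replicate 1) and Wars2 in Foxk2 overexpression (0.33). Ears2 was called lower in Foxk1 knockdown (-0.27). Cars2, for cysteine, went from 5.39 ± 0.0961 to 4.75 ± 0.0680 RPKM (SD, n = 3 and 3) with labelled Foxk1 overexpression (-0.17 ± 0.047, adjusted p = 0.00849), a call lost after removal of the length and GC trend (-0.09, adjusted p = 0.128). It shares 422 exonic bases with Naxd on the other strand, and Iars2 shares 2034 with Rab3gap2. Hars2, Lars2, Mars2 and Vars2 were called in no comparison.

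Lars2, for the mitochondrial leucyl enzyme, had 1 library far above the others in each of 2 groups. It read 22.8, 26.1 and 66.9 RPKM in the 3 controls of labelled Foxk1 overexpression and 59.8 and 34.3 RPKM in the 2 Foxk2 knockdown libraries, and the SE of its changes was 0.299 in the Foxk1 set and 0.367 in the Foxk2 set. The unnamed gene Gm42418, set beside it after these values were seen, read 586.5, 609.8 and 2547 RPKM in the same 3 controls, so the third library was high in both. Gm42418 is listed at 0 in all 8 Foxk2-set libraries. Its part in the Lars2 values was not tested.

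**Figure D4:**
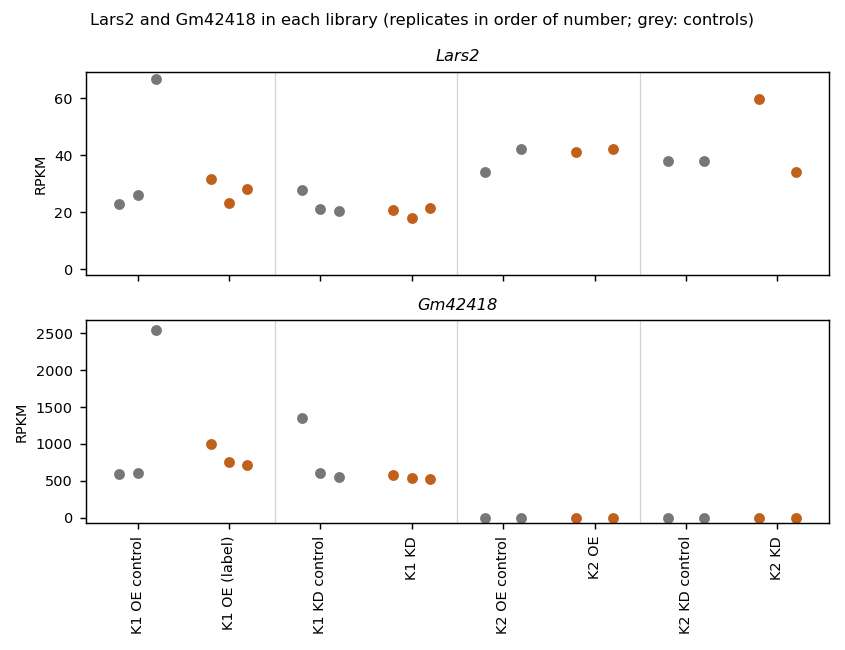
RPKM of Lars2 in every library by group, above that of Gm42418. Replicate 3 of the labelled Foxk1 overexpression controls, at 66.9 RPKM of Lars2 and 2547 RPKM of Gm42418, lies far from the other libraries of its group.

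Across the series, 10 members were called higher in both overexpressions and lower in both knockdowns: Aars, Dars, Eprs, Farsb, Gars, Hars, Kars, Rars2, Tars2 and Yars2. That pattern held for 723 of all genes tested, or 4.52%, and no member had the mirror pattern, which 6.98% of genes had. Being called higher in both overexpressions was shared by 22 members (13.5% of all genes), and being called lower in both knockdowns by 13 (8.03%). With Foxk1, 20 members were called higher under the overexpression label and lower in knockdown, against 8.82% of all genes, and with Foxk2, 14 members against 10.4%. Qars, Hars2, Lars2, Mars2 and Vars2 were called in none of the 4 comparisons, as were 27.9% of all genes. Of the 10, Aars, Dars, Farsb, Gars, Rars2, Tars2 and Yars2 kept all 4 calls in each of the 11 alternatives fitted to all libraries. These genes also kept them on leaving out any one library. Hars and Kars (-0.10, adjusted p = 0.0473, and -0.09, adjusted p = 0.0463) lost their Foxk1 knockdown calls without 6 and 4 of its 6 libraries, left out in turn. Both also lost them in 4 and 5 of 12 other settings.

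The size of the change differed between the factors for a minority of members, at shares near those over all genes. With overexpression, 9 members differed between the labelled Foxk1 libraries and Foxk2, where 25.1% of all genes did, and with knockdown 5 members differed, against 14.3%. Vars had the largest differences, 0.65 ± 0.092 in overexpression (adjusted p = 0.000127) and -0.36 ± 0.092 in knockdown (adjusted p = 0.0163), Foxk1 minus Foxk2, of which the second became -0.16 (adjusted p = 0.055) after removal of the length and GC trend. Farsa (0.34 ± 0.078, adjusted p = 0.00492) and Cars (0.33 ± 0.073, adjusted p = 0.00436) rose more under the Foxk1 label. Sars (-0.32 ± 0.048, adjusted p = 0.00035) and Eprs (-0.28 ± 0.063, adjusted p = 0.00693) fell more in Foxk1 knockdown, and Fars2 fell more in Foxk2 knockdown (0.27 ± 0.069, adjusted p = 0.0167). The count of 9 became 4 without Foxk2 overexpression control replicate 2 or without Foxk2 overexpression replicate 1, and the count of 5 became 3 without Foxk2 knockdown control replicate 2 or without Foxk2 knockdown replicate 1. The sets of libraries also differ in controls, depth and replicate number, which cannot be told apart from the factor.

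**Figure D5:**
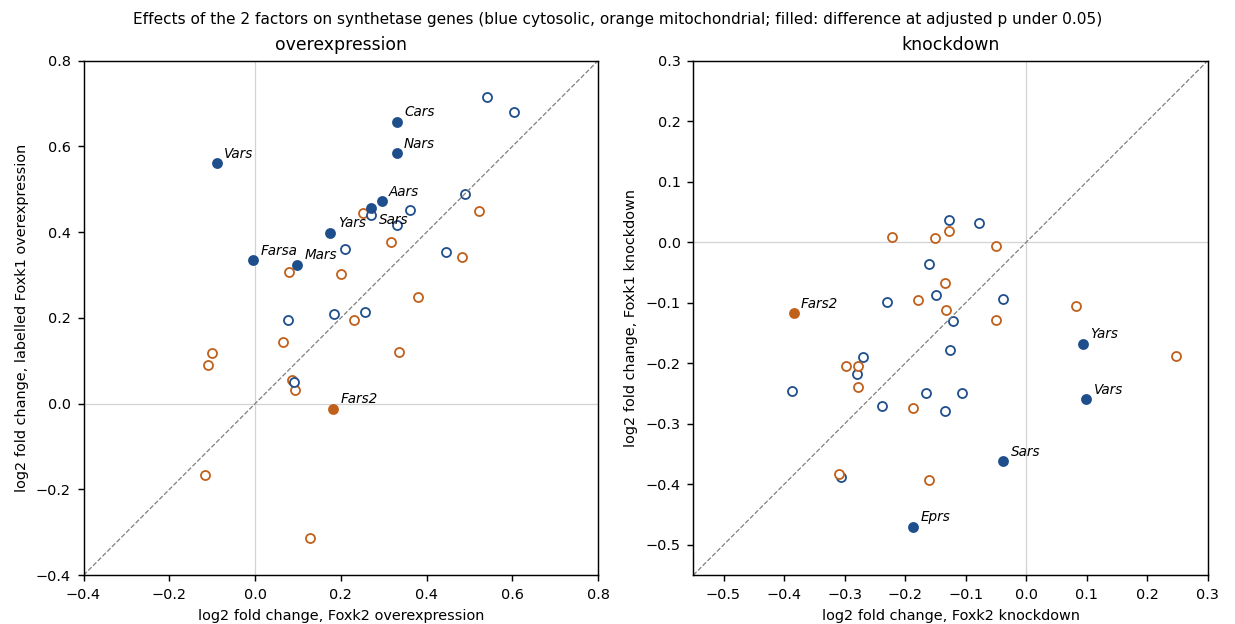
Log2 fold changes of the 37 synthetase genes with Foxk2 (x axis) against those with Foxk1 (y axis) for overexpression and for knockdown, with equal change along the diagonal. Filled, named points are genes whose changes differ at an adjusted p under 0.05, 9 in overexpression and 5 in knockdown, and Vars lies farthest from the diagonal in overexpression.

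Other genes of amino acid supply were read from lists written for this comparison. Of 25 genes of the ATF4 pathway, 21 were called higher and 1 lower with labelled Foxk1 overexpression, 1 higher and 22 lower in Foxk1 knockdown, 17 higher and 3 lower in Foxk2 overexpression, and 1 higher and 12 lower in Foxk2 knockdown, with medians of 0.58, -0.33, 0.25 and -0.13. For these and the next lists, the shares over all genes were 24.1% higher and 23.8% lower, 20.4% and 15.5%, 23.0% and 22.0%, and 18.0% and 15.7% in the 4 comparisons. Atf4 itself changed by 0.71 ± 0.032, -0.38 ± 0.032, 0.32 ± 0.039 and -0.13 ± 0.039 (adjusted p = 9.3e-11, 1.99e-07, 5.88e-06 and 0.0186), and was named after its values were seen. With labelled Foxk1 overexpression the largest changes were in Ppp1r15a, which restarts translation (1.12), the transcription factor gene Cebpb (1.02) and Aldh18a1, of proline synthesis (0.95). In Foxk1 knockdown they were in the pseudokinase gene Trib3 (-1.70), Ddit3 (-1.21) and the glutathione-degrading Chac1 (-1.13). In Foxk2 overexpression Phgdh, the first enzyme of serine synthesis, fell (-1.15) while Psph (0.81) and Psat1 (0.60) of the same route rose. Phgdh was also the 1 gene called lower with labelled Foxk1 overexpression, where Psph and Psat1 were called higher. In Foxk2 knockdown Nupr1 (-0.69), Psat1 (-0.68) and Trib3 (-0.60) fell most.

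Of the 11 synthetases known as ATF4-linked, 11 were called higher with labelled Foxk1 overexpression and 10 lower in Foxk1 knockdown. In Foxk2 overexpression 10 were called higher, and in Foxk2 knockdown 5 lower. All 11 belong to the 20 cytosolic genes, of which 19, 16, 15 and 10 were called in those directions. The kinases and sensors upstream of ATF4 had another pattern: of 7, 1 was called higher (Eif2s1) and 4 lower with labelled Foxk1 overexpression, and 4 higher in Foxk1 knockdown, among them Impact, a GCN2 inhibitor (-0.50 and 0.26), and Eif2ak3, which encodes PERK (-0.26 and 0.19). After removal of the length and GC trend these counts became 3 higher and 2 lower, and 2 higher and 1 lower. In the Foxk2 set Impact was called lower (-0.38) and Eif2s1 higher (0.20) with overexpression, and Eif2s1 lower in knockdown (-0.26).

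Among 12 accessory genes of tRNA charging, 4 were called higher and 1 lower with labelled Foxk1 overexpression (24.1% and 23.8% of all genes), 6 lower in Foxk1 knockdown (15.5%), 6 higher and 1 lower in Foxk2 overexpression (23.0% and 22.0%) and 7 lower in Foxk2 knockdown (15.7%). Xpot, which exports tRNA from the nucleus, was called in all 4 (0.35, -0.42, 0.32 and -0.27). Qrsl1, a subunit of the amidotransferase that makes mitochondrial glutaminyl-tRNA, was called higher in both overexpressions (0.39 and 0.61) and lower in Foxk2 knockdown (-0.33), and Dtd1, which removes D-amino acids from tRNA, was the 1 gene called lower in both overexpressions (-0.42 and -0.32). Gatc, of the same amidotransferase, was called lower in both knockdowns (-0.21 and -0.26). Prorsd1 was called lower in both knockdowns (-0.30 and -0.46), and Tarsl2, a second cytosolic threonyl enzyme outside the symbol rule, was called higher in Foxk2 overexpression (0.39) and lower in its knockdown (-0.37).

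Cytosolic elongation factor genes, which act after charging, did not go with the synthetases in every comparison. Of 6, 6 were called higher with labelled Foxk1 overexpression, although under quantile normalization 4 were and 1 of the 6 changed sign. The counts were 1 higher and 1 lower in Foxk1 knockdown, 2 higher and 1 lower in Foxk2 overexpression, and 4 higher and 1 lower in Foxk2 knockdown. In Foxk2 knockdown Eef2 (0.32), Eef1b2 (0.25) and Eef1d (0.15) were called higher, where median-ratio scaling called 2 of the 6 higher. Eif5a was called in all 4 in the synthetase direction (0.29, -0.09, 0.15 and -0.12). Its Foxk1 knockdown call was lost under quantile normalization, where 0 of the 6 were called lower. Of 10 mitochondrial translation factors, 6 were called higher and 1 lower with labelled Foxk1 overexpression (24.1% and 23.8% of all genes), 4 lower in Foxk1 knockdown (15.5%), 4 higher in Foxk2 overexpression (23.0%) and 5 lower in Foxk2 knockdown (15.7%). Their largest changes were in Mtif3 (0.28 with labelled Foxk1 overexpression), Mtrf1 (-0.26 and -0.39 in the knockdowns) and Guf1 (0.44 in Foxk2 overexpression).

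Markers of undifferentiated cells changed in all 4 comparisons, in the direction opposite to most synthetase genes. Where 6.98% of all genes were called lower in both overexpressions and higher in both knockdowns, all 10 fibroblast and preadipocyte markers were. Their summed level went from 772 to 931 RPKM in controls to 287 to 304 RPKM with labelled Foxk1 overexpression, from 1491 to 1598 up to 2653 to 2783 RPKM in Foxk1 knockdown, from 621 to 635 down to 270.2 to 290.1 RPKM in Foxk2 overexpression and from 421 to 423 up to 1154 to 1213 RPKM in Foxk2 knockdown. Of 10 adipocyte markers, 7 were called lower with labelled Foxk1 overexpression (23.8% of all genes) and 7 in Foxk1 knockdown (15.5%). In Foxk2 overexpression 7 were called lower (22.0%), and in Foxk2 knockdown 4 (15.7%). Cebpa was called higher in the first of these comparisons and Lpl and Retn in the third. The summed level of the 10 adipocyte markers was 0.653, 0.841, 0.642 and 0.850 times the control in those comparisons. The part of these markers in the synthetase changes was not tested. The 6 macrophage markers summed to 1.75 to 3.80 RPKM over all libraries, and in Foxk2 knockdown the sum went from 1.75 to 1.85 up to 3.00 to 3.45 RPKM, 1.79 times the control with no overlap, where Cd68 was called higher (0.69). Csf1r was called higher with labelled Foxk1 overexpression (0.25). Tyrobp was listed at 0 in every library, and Ptprc, Itgam and Adgre1 were at 0.0181 RPKM or less; the part of Cd68, Csf1r and this sum in the synthetase changes was not tested.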

How the data were processed

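RNA sequencing of 20 libraries in 8 groups was deposited as 1 table of RPKM values, which the authors made from reads assigned to genes of mm10, with HISAT2 2.1.0, Picard 1.141, featureCounts of Subread 1.5.1 and edgeR named in the submitters' processing notes. Strand setting and read filters are not given in the sources used here. From the deposited RPKM, log2(RPKM + 0.5) was computed, so fold changes of low genes are understated. A gene was tested when at least 2 libraries reached an RPKM of 0.5, which left 15981. One limma 3.58.1 model (R 4.3.3) held a mean per group, with a trended prior and 12 residual degrees of freedom, two-sided tests and Benjamini-Hochberg adjustment over all genes tested. Differences between factors were contrasts of the 2 changes in that model. All groups shared 1 estimate of the spread for each gene. Between libraries, the median SD of the members on the log2 scale was 0.0681 in Foxk2 overexpression and 0.0248 to 0.0574 in the other groups. The SE given for Foxk2 overexpression may therefore be too small. The script was tested on simulated data.

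RPKM multiplied by exon length gave whole reads, which served for read totals, a voom alternative and a filter at a mean of 20 reads. Alternatives covered the pseudocount (0.1 and 1), filters, scaling, a robust prior, the replicate block, models of fewer groups and each library left out. Members and gene lists were chosen with earlier results of these data known. Genes were named in full where called in all 4 comparisons (the 6 with the largest summed absolute change) or among the 4 largest called changes of a comparison, and other lists by their 3 largest called changes. Replicate numbers were not used to pair libraries, since same-numbered libraries did not deviate together. Promoter sequences came from RefSeq. One member enters the counts, medians and sums but is not reported here by name.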

Additional observations from a re-analysis of the deposited data

Results flagged for a closer look

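The change differed between Foxk1 and Foxk2 for 9 members in overexpression and 5 in knockdown, by limma's contrast of the 2 changes (Foxk1 minus Foxk2, log2 ± SE, adjusted p over all genes). These counts lie near the share over all genes tested, 25.1% in overexpression and 14.3% in knockdown. The Foxk1 overexpression libraries keep the caution that Foxk1 RNA did not rise in them, and the 2 sets of libraries differ in controls, depth and replicate number.

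With overexpression, Vars differed by 0.65 ± 0.092 (adjusted p = 0.000127), Farsa by 0.34 ± 0.078 (adjusted p = 0.00492) and Cars by 0.33 ± 0.073 (adjusted p = 0.00436), and none of these 3 lost its call in any alternative. Nars differed by 0.25 ± 0.066 (adjusted p = 0.0102), Mars by 0.23 ± 0.062 (adjusted p = 0.0142) and Sars by 0.19 ± 0.048 (adjusted p = 0.0101). Nars and Mars lost the call without Foxk2 overexpression control replicate 2 (adjusted p = 0.0605 and 0.0891), and all 3 lost it without Foxk2 overexpression replicate 1 (0.0638, 0.0552 and 0.0548). Yars differed by 0.22 ± 0.068 (adjusted p = 0.0261), Aars by 0.18 ± 0.058 (adjusted p = 0.0359) and Fars2 by -0.19 ± 0.069 (adjusted p = 0.0499), and these lost the call without 4, 4 and 8 of the 10 libraries left out in turn. They also lost it in 2, 3 and 6 of 12 other settings: after removal of the length and GC trend the Aars difference was 0.04 (adjusted p = 0.657) and that of Yars 0.17 (adjusted p = 0.0724), and with a replicate block the adjusted p of Fars2 was 0.103.

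With knockdown, Vars differed by -0.36 ± 0.092 (adjusted p = 0.0163), Sars by -0.32 ± 0.048 (adjusted p = 0.00035), Eprs by -0.28 ± 0.063 (adjusted p = 0.00693), Fars2 by 0.27 ± 0.069 (adjusted p = 0.0167) and Yars by -0.26 ± 0.068 (adjusted p = 0.0178). Sars and Eprs kept the call in every alternative run. The Vars difference became -0.16 (adjusted p = 0.055) after removal of the length and GC trend, and its call was also lost in a model of these groups alone (adjusted p = 0.0608). Vars and Yars lost the call without Foxk2 knockdown control replicate 2 and without Foxk2 knockdown replicate 1, and Fars2 without Foxk2 knockdown control replicate 1, without Foxk2 knockdown replicate 2, with a replicate block (adjusted p = 0.0558) and in a model of these groups alone (adjusted p = 0.054).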

How the results depend on the processing

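Of 2516 single-gene values over all alternatives, 2375 kept their call or lack of one, 90 lost the call and 49 gained it. Direction was compared only where a value was called in the main fit or in the alternative. The other 2 values reversed: Vars, at 0.19 in Foxk2 overexpression and -0.12 in Foxk2 knockdown with the length and GC trend removed. That setting also gave 0 members called lower with labelled Foxk1 overexpression, and medians of 0.38 there, -0.22 in Foxk1 knockdown and -0.22 in Foxk2 knockdown. Median-ratio scaling gave knockdown medians of -0.22 and -0.18, and quantile normalization -0.20 and -0.18. The count called higher in both overexpressions and lower in both knockdowns became 16 under median-ratio scaling and 19 with the trend removed. The share over all genes rose as well, from 4.52% to 5.78% and 7.53%. Members differing between knockdowns numbered 3 in a model of those groups alone. Of 148 single-gene values, models of the compared groups alone lost the call in 15 and gained it in 3. In Foxk2 overexpression, Aars2, Hars, Iars2, Lars, Wars and Yars lost their calls there (adjusted p = 0.0629 to 0.153). Settings other than leaving out a library gave 18 to 27 members called higher in that comparison. The causes were not tested.

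Leaving out 1 library gave 18 to 21 members called lower in Foxk1 knockdown (23 with all libraries) and 12 to 13 in Foxk2 knockdown (17 with all), 26 to 29 called higher with labelled Foxk1 overexpression and 20 to 25 in Foxk2 overexpression. It gave knockdown medians of -0.18 to -0.16 (Foxk1) and -0.16 to -0.15 (Foxk2), overexpression medians of 0.31 to 0.35 (labelled Foxk1) and 0.18 to 0.27 (Foxk2), 4 to 10 members differing between overexpressions, 3 to 5 between knockdowns, and 8 to 11 with the 4-way pattern. A Foxk2 group then keeps 1 library, assumed to vary like the other groups. Replicate numbers did not pair libraries (same-number correlations at most 0.0331), and with a replicate block 28, 19, 25 and 16 members were called in the 4 comparisons, with 8 and 4 differences and 11 in the pattern. At the lowest depth, 118 reads of Sars2 and Pars2, counting error limits precision.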
